A study of Mus musculus with 6 samples.

Results

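Transforming growth factor beta (TGF-beta) ligands, their receptors and their SMAD messengers were followed in C2C12 cells after small interfering RNA (siRNA) against huntingtin. The group holds 10 genes named by pathway role: the ligands Tgfb1, Tgfb2 and Tgfb3, the receptors Tgfbr1, Tgfbr2 and Tgfbr3, the receptor-regulated SMADs Smad2 and Smad3, and the inhibitory SMADs Smad6 and Smad7. All 10 were measured, among 22180 genes in all, each by 1 probe set that the platform annotation gives to a lone gene symbol. C2C12 is an established mouse myoblast line, called a myoblastoma line in the sample descriptions, that stops dividing and fuses into myotubes when serum is withdrawn. The tested arrays came from cells transfected with an Htt siRNA pool (labelled HTT KO, although the treatment is a transient knockdown, n = 3), and the comparison arrays from cells transfected with scramble siRNA (n = 3). Both groups therefore went through transfection. The labels state neither the time after transfection, nor the serum conditions, nor whether replicates were separate cultures, so the errors below measure the spread between arrays, which may be technical.

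TGF-beta is secreted in a latent form and, once released, binds the type II receptor encoded by Tgfbr2, which recruits and phosphorylates the type I receptor encoded by Tgfbr1. The type I receptor phosphorylates SMAD2 and SMAD3, which enter the nucleus with SMAD4 and change transcription, and SMAD7, itself a transcriptional target of the pathway, blocks the type I receptor in a feedback loop. In cultured myoblasts TGF-beta is known as an inhibitor of differentiation, and SMAD3 as a repressor of MyoD-driven transcription, while in muscle tissue the pathway is known for driving matrix deposition.

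Expression is given as deposited log2 values from RMA (robust multi-array average, which background-corrects, quantile-normalizes and summarises probes). A difference is Htt siRNA minus scramble on that scale, followed by its standard error from limma, and a gene counted as called when its p, adjusted by Benjamini-Hochberg over all 22180 genes, was below 0.05. Htt itself, which checks the labels, stood at 4.49, 4.47 and 4.65 in the Htt siRNA arrays and at 5.59, 5.60 and 5.72 in the scramble arrays (difference -1.10 ± 0.09, adjusted p = 0.0559), without overlap but just short of a call. The C2C12 lineage markers listed for the check (Myod1, Myf5, Des, Cdh15, Itga7, Chrna1 and Vcam1) all lay above the median gene. All 5 endothelial and all 4 measured osteoblast markers lay below it. Other lists of non-muscle cells were mixed. Of these, 4 of 5 adipocyte and 4 of 6 fibro-adipogenic markers lay below it. So did 3 of 6 macrophage and leukocyte markers and 1 of 5 smooth muscle and pericyte markers. Pparg (mean log2 5.72 over the arrays), Cd14 (4.20) and Cd68 (4.10) were among those above it. Of 12 muscle differentiation genes, 12 had higher means after Htt siRNA, beside 58.2% of all genes with a positive difference. List levels were 4.75 to 5.71 against 3.44 to 4.16, and the median difference was 1.33. All 12 had an unadjusted limma p below 0.05, against 5.72% of all genes on the higher side. For 11 of them every knockdown array was above every scramble array, against 10.1% of all genes. After adjustment 0 were called, against 0.0% of all genes. The arrays were not alike in other ways. A stress response list of 14 measured genes lay at 8.34, 6.19 and 8.42 in the knockdown arrays numbered 1 to 3 and at 8.61, 6.52 and 7.01 in the scramble arrays numbered 1 to 3, and 14 S phase genes lay at 5.50, 6.90 and 5.80 against 6.69, 7.36 and 7.10. Htt siRNA replicate 2 thus stood apart from the other knockdown arrays in both of these lists. Its muscle differentiation level was also the lowest of the knockdown arrays (4.75, against 5.71 in replicate 1 and 5.52 in replicate 3). RNA came from whole cultures, so fewer cells of a state and less RNA per cell cannot be told apart, and how far these states take part in the differences below was not tested.

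**Figure D1:**
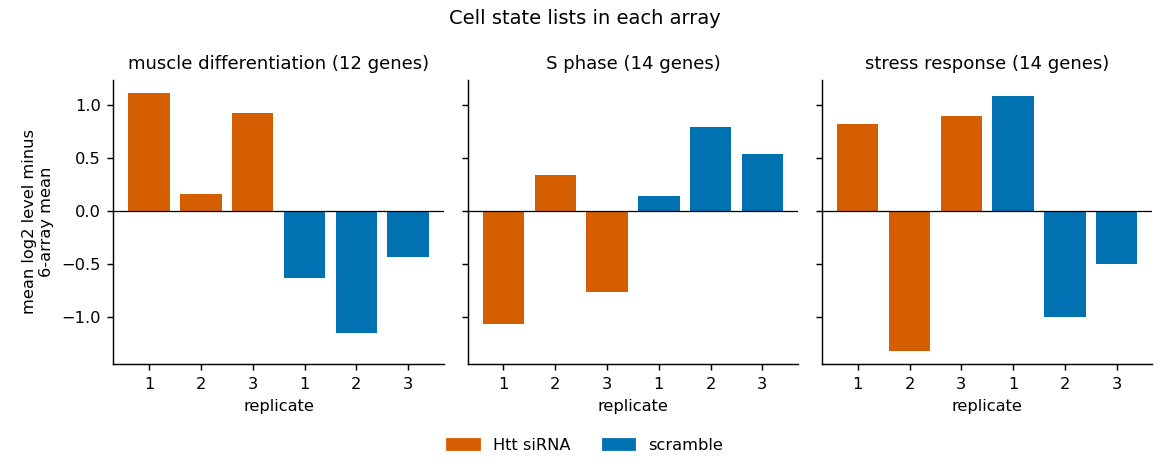
Mean log2 level of 3 gene lists in each array, as the difference from the mean of the 6 arrays; bars are single arrays, Htt siRNA in orange and scramble in blue. The muscle differentiation level is above 0 in each Htt siRNA array and below 0 in each scramble array, while the stress response level is below 0 in Htt siRNA replicate 2, the lowest, and in scramble replicates 2 and 3, and above 0 in the remaining arrays.

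None of the 10 genes was called: 0 of 10, against 0.0% of all genes in the same limma fit. With an unadjusted p below 0.05 there were 3, with Smad7 lower and Tgfb2 and Tgfbr2 higher, against 10.9% of all genes (5.72% higher and 5.14% lower). That split of all genes was 911 higher and 1465 lower with arrays centred on their medians, instead of 1269 and 1140, and the 3 members kept their directions. The groups did not overlap for 2 of the 10, Smad7 and Tgfb2, against 16.0% of all genes. The median difference of the 10 genes was 0.07, beside 0.03 for all genes, and 6 of 10 differences were positive, beside 58.2% of all genes. The median and the share of positive differences were thus close to those of all genes.

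**Figure D2:**
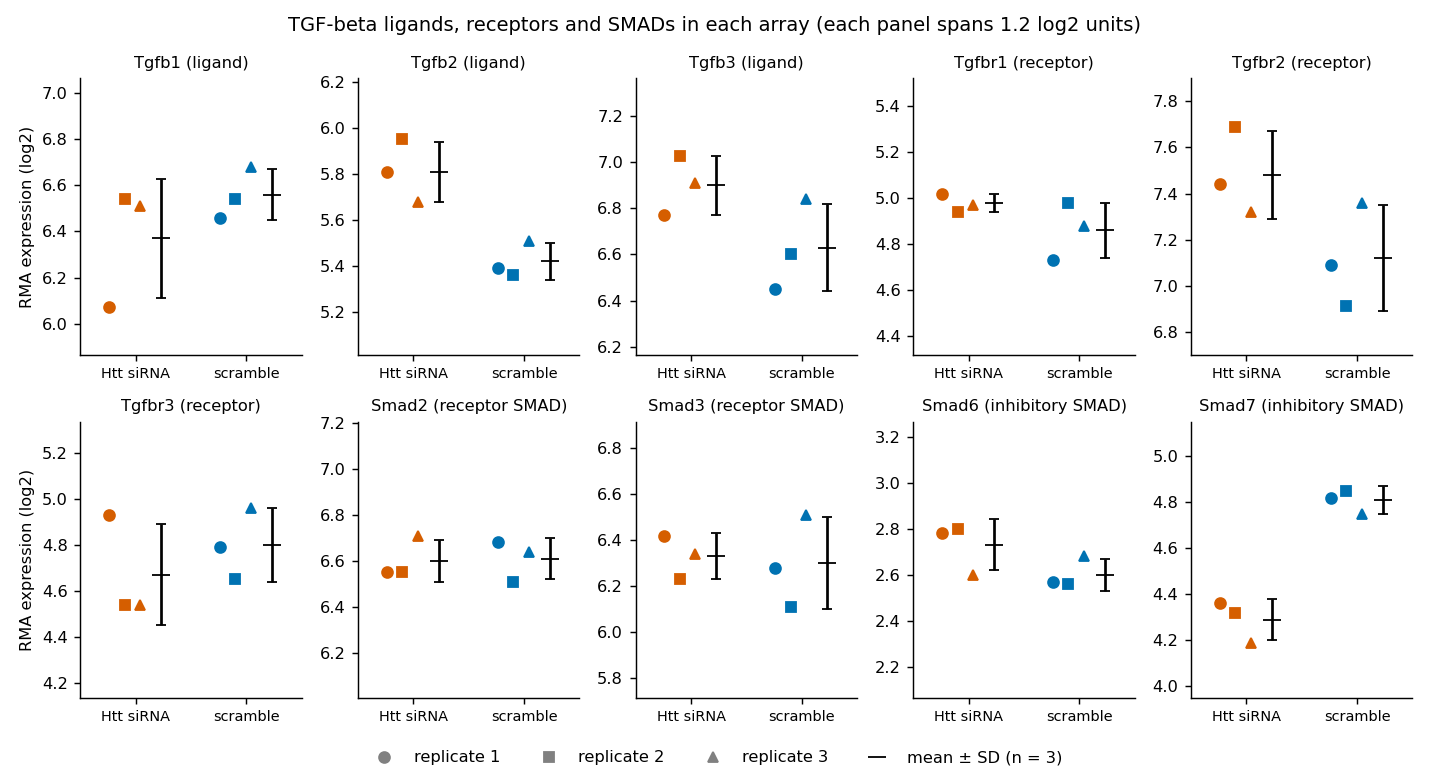
RMA expression (log2) of the 10 genes in each array, with Htt siRNA in orange and scramble in blue; marker shapes give the replicate number and black bars the mean ± SD (n = 3). Smad7 is lower in every Htt siRNA array, Tgfb2 is higher in every Htt siRNA array, and the other 8 genes overlap between the groups.

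TGF-beta 2, the isoform encoded by Tgfb2, stood higher in each knockdown array, while the values of Tgfb1 and Tgfb3 overlapped between the groups. Tgfb2 had log2 values of 5.81, 5.95 and 5.68 in the Htt siRNA arrays, against 5.39, 5.36 and 5.51 in the scramble arrays. The lowest knockdown array lay 0.17 above the highest scramble array, and the difference of 0.39 exceeded the range within either group (0.27 with Htt siRNA and 0.15 with scramble). In linear terms the Htt siRNA level was 131% of the scramble level (95% interval 112 to 154%). The limma difference of 0.39 ± 0.10 had an adjusted p = 0.314, so Tgfb2 was not called. By size, 6.01% of all genes differed more.

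Tgfb3, whose product is the TGF-beta 3 ligand, had values of 6.77, 7.03 and 6.91 with Htt siRNA, against 6.45, 6.60 and 6.84 with scramble. Scramble replicate 3 lay above the lowest knockdown array. The difference of 0.27 ± 0.12 (adjusted p = 0.478) was smaller than the range of the scramble arrays, which was 0.38. Its 95% interval ran from -0.01 to 0.56.

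Tgfb1 encodes the ligand most studied in fibrosis, and its values were 6.07, 6.54 and 6.51 with Htt siRNA, against 6.46, 6.54 and 6.68 with scramble. Htt siRNA replicate 1 lay well below the other 5 arrays, and without it the difference of -0.19 ± 0.14 (adjusted p = 0.665) became -0.04. With all arrays the 95% interval ran from -0.51 to 0.14.

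The promoters of Tgfb1 and Tgfb2 are shown because they represent the ligands with the lowest and the highest difference, neither called, and differ in composition. Of the 10 genes, 6 had a promoter in the RefSeq table used (GRCm38.p6), and 250 bases upstream of the annotated start are given 5′ to 3′ on the gene's strand. Capitals mark 4 motifs searched on both strands: the SMAD box CAGAC, the E-box CANNTG bound by MyoD-family and other helix-loop-helix factors, the GC box GGGCGG bound by Sp1-type factors, and the TATA box TATAAA. No marked motifs overlap.
Tgfb1, chr7:25686752-25687001, plus strand: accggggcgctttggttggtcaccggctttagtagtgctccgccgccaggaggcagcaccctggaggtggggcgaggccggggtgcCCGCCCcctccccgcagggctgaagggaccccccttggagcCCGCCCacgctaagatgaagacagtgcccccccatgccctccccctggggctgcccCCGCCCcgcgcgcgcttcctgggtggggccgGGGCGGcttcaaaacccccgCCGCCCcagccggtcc
Tgfb2, chr1:186705990-186706239, minus strand: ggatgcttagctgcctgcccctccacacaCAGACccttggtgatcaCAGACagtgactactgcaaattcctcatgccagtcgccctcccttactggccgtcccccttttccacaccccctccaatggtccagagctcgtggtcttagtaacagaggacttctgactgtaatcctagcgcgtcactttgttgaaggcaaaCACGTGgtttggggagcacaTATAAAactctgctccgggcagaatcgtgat
The Tgfb1 sequence held 5 GC boxes and none of the other 3 motifs. The Tgfb2 sequence held no GC box but 2 SMAD boxes, starting 221 and 204 bases upstream, 1 E-box and 1 TATA box starting 31 bases upstream. Over all 32851 promoters in the table, 42.2% held a SMAD box in this window, 66.2% an E-box, 32.7% a GC box and 12.4% a TATA box. A match of letters describes the sequence and is no evidence of a bound site.

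Among the receptors, the type II receptor gene Tgfbr2 had the largest difference, with overlapping groups. Its values were 7.44, 7.69 and 7.32 with Htt siRNA, against 7.09, 6.91 and 7.36 with scramble. Scramble replicate 3 stood above Htt siRNA replicate 3, so the groups overlapped. The difference was 0.36 ± 0.14 (adjusted p = 0.435), or 129% of the scramble level (95% interval 102 to 162%), and it was smaller than the range of 0.45 among the scramble arrays. Without Htt siRNA replicate 2, the array with the highest value, it was 0.26, and without scramble replicate 3 it was 0.48. The arrays ranked in the same order for Tgfbr2 and Tgfb2 within both groups, with replicate 2 first and replicate 3 last among the knockdown arrays and replicate 3 first and replicate 2 last among the scramble arrays, and Smad6 had that order too.

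The promoter of Tgfbr2 is given for the same motifs because this receptor and Tgfb2 were the members with an unadjusted p below 0.05 on the higher side.
Tgfbr2, chr9:116175364-116175613, minus strand: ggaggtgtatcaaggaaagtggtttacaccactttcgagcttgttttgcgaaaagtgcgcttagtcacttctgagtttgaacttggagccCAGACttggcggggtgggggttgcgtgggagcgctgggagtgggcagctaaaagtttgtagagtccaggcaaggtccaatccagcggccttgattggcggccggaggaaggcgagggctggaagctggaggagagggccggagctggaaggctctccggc
It held 1 SMAD box, starting 160 bases upstream, and none of the other 3 motifs. Among the other members searched, Tgfbr1 had 1 SMAD box in one listed promoter and none in the other. The Smad3 and Smad6 promoters held no SMAD box. Smad7, the member with an unadjusted p below 0.05 on the lower side, had no promoter listed and was not searched. The same holds for Tgfb3, Tgfbr3 and Smad2.

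Tgfbr1, the type I receptor and kinase that acts on SMAD2 and SMAD3, had values of 5.02, 4.94 and 4.97 with Htt siRNA, against 4.73, 4.98 and 4.88 with scramble. The knockdown arrays sat close together and scramble replicate 2 lay among them. The difference was 0.11 ± 0.09 (adjusted p = 0.694, 95% interval -0.10 to 0.33).

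Tgfbr3 encodes betaglycan, a co-receptor that presents ligand, TGF-beta 2 above all, to the type II receptor. It had 4.93, 4.54 and 4.54 with Htt siRNA, against 4.79, 4.65 and 4.96 with scramble. Htt siRNA replicate 1 stood with the highest scramble arrays while the other knockdown arrays were the lowest of all 6. The difference was -0.13 ± 0.14 (adjusted p = 0.759), and leaving out single arrays gave values between -0.26, with Htt siRNA replicate 1 omitted, and -0.05, with scramble replicate 3 omitted.

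Neither receptor-regulated SMAD was called. Smad2, which SMAD4 accompanies into the nucleus, had 6.55, 6.55 and 6.71 with Htt siRNA, against 6.68, 6.51 and 6.64 with scramble. Its mean was 6.60 ± 0.09 in the knockdown group and 6.61 ± 0.09 in the scramble group (SD, n = 3 each), and the 95% interval of the difference ran from -0.22 to 0.21, or 86.0 to 116% of the scramble level. Smad3, whose product binds DNA directly, had 6.42, 6.23 and 6.34 with Htt siRNA, against 6.28, 6.11 and 6.51 with scramble. The scramble arrays of Smad3 enclosed all 3 knockdown values. Its difference was 0.03 ± 0.12 (95% interval -0.25 to 0.31). The adjusted p was 0.992 for Smad2 and 0.944 for Smad3. These intervals bound a change in either direction and do not show equality.

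Smad7, the feedback inhibitor that recruits SMURF ubiquitin ligases to the type I receptor, had the smallest p of the 10 genes and was lower in every knockdown array. Its log2 values were 4.36, 4.32 and 4.19 with Htt siRNA, against 4.82, 4.85 and 4.75 with scramble. The groups lay 0.39 apart at their nearest arrays, while the values spanned 0.17 within the knockdown group and 0.11 within the scramble group. Means were 4.29 ± 0.09 with Htt siRNA and 4.81 ± 0.06 with scramble (SD, n = 3 each). The difference of -0.52 ± 0.09 placed the Htt siRNA level at 69.8% of the scramble level (95% interval 60.7 to 80.3%). Smad7 ranked 48 of 22180 by p and 3.23% of genes differed more in size, but the adjusted p = 0.174 missed the threshold. RMA values compress weak signals, so the linear share may understate the difference.

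Smad7 was called only when a single array was left out. Htt siRNA replicate 2 had the lowest stress level of the 6 arrays. Among the knockdown arrays it also had the lowest muscle differentiation level and the highest S phase level. Without this array, Smad7 fell by 0.54 (adjusted p = 0.0465 in limma) and was the only 1 of the 10 genes called. In that fit 2.43% of all genes were called, 0.528% higher and 1.91% lower. Smad7 in replicate 2 (4.32) lay between the other knockdown arrays, so its own difference hardly moved. Its unadjusted limma p was larger in that fit, at 0.00103 against 0.000384 as reported. With the stress response level as a covariate the Smad7 difference was -0.52 (adjusted p = 0.0686), and across all 15 alternatives it lay between -0.55 and -0.46, with adjusted p from 0.0465 to 0.624.

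Smad6, the inhibitory SMAD better known for restraining bone morphogenetic protein signals, had 2.78, 2.80 and 2.60 with Htt siRNA, against 2.57, 2.56 and 2.68 with scramble. The groups overlapped, and its mean of 2.66 over the 6 arrays lay below the median gene (2.95), where RMA values are compressed. The difference was 0.13 ± 0.09 (adjusted p = 0.662), and the difference between the responses of Smad6 and Smad7 was not tested.

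**Figure D3:**
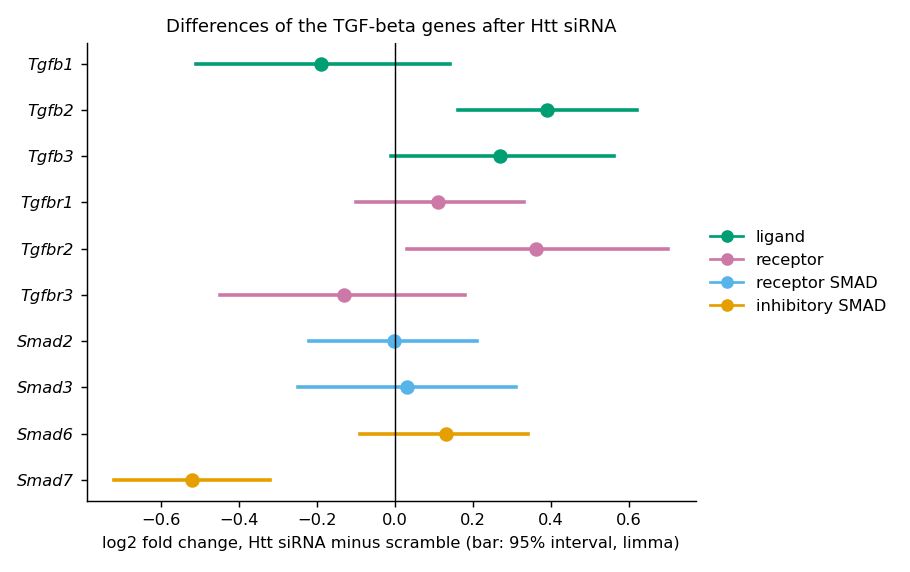
Log2 fold change, Htt siRNA minus scramble, of each of the 10 genes with its 95% interval from limma (n = 3 arrays per group), coloured by role. The interval of Smad7 lies below 0, those of Tgfb2 and Tgfbr2 lie above 0, and the other 7 include 0; none passed after adjustment over all genes.

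**Figure D4:**
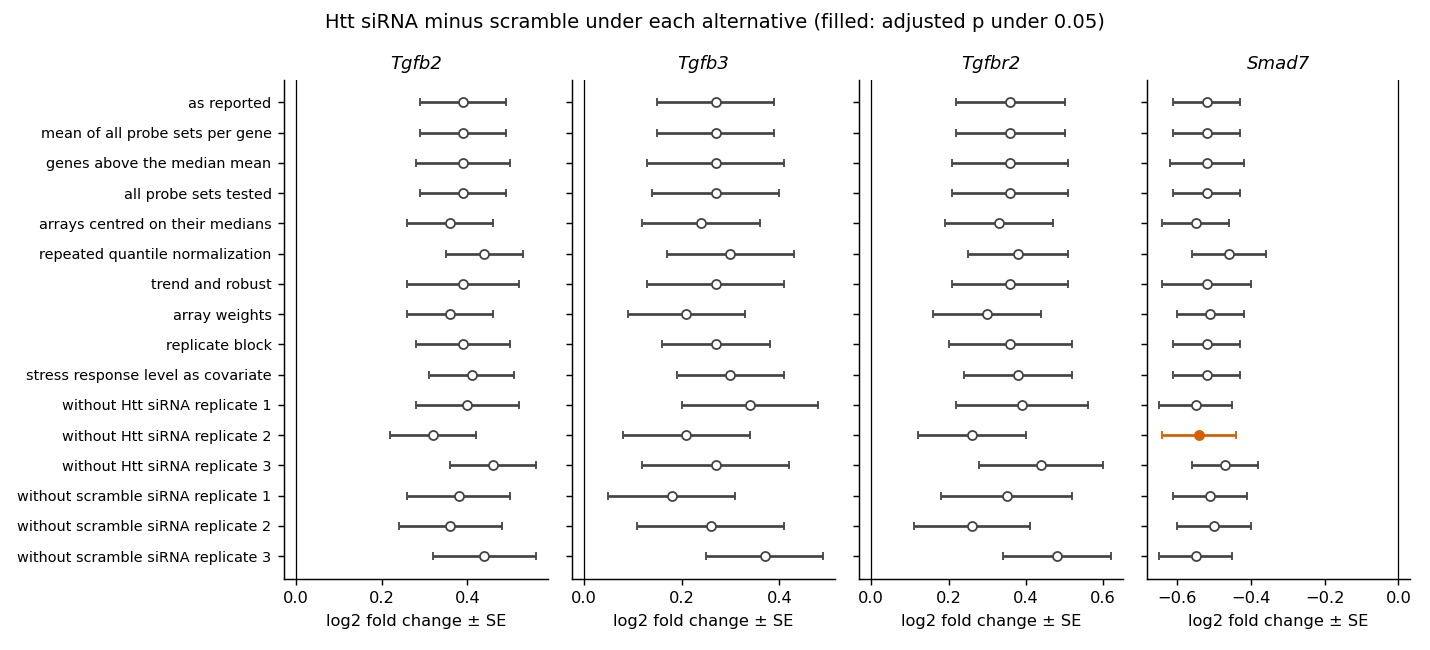
Log2 fold change ± SE of Tgfb2, Tgfb3, Tgfbr2 and Smad7 under the fit as reported and 15 alternatives, with filled orange points where the adjusted p was below 0.05. All 4 genes keep their sign throughout, and the only filled point is Smad7 without Htt siRNA replicate 2.

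Patterns across the 6 arrays were compared for Smad7 and Tgfb2, the members with the smallest p, over 11089 other genes above the median gene. Closest to Smad7 by Pearson correlation were Kpna1, which encodes an importin alpha (r = 0.993), Kif2a, a microtubule-depolymerising kinesin (0.980), Poc1a, a centriole protein (0.978), Fam107b (0.977) and Ints2, a subunit of the Integrator complex (0.977). Closest to Tgfb2 were Ube2l6, the conjugating enzyme for ISG15 (0.990), the imprinted gene Mest (0.990), the adaptor Traf4 (0.988), the small GTPase Arl3 (0.984) and the focal adhesion protein Parva (0.979). Of the genes searched, 46 exceeded r = 0.95 with Smad7 and 27 with Tgfb2. With 6 arrays in 2 groups such values describe a shared profile and carry no test.

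Upstream of the receptors, 11 genes that store, process or release latent ligand were measured, and 0 were called. Lrrc32, which encodes the GARP protein that tethers latent TGF-beta to the cell surface, had 3.26, 3.29 and 3.33 with Htt siRNA, against 2.64, 2.76 and 2.86 with scramble. The groups did not overlap, though the scramble values lie under the median gene (2.95) (difference 0.54 ± 0.09, adjusted p = 0.171). Ltbp1, a matrix protein that anchors latent TGF-beta, had 7.19, 7.75 and 7.25 with Htt siRNA, against 7.81, 7.80 and 7.67 with scramble. Htt siRNA replicate 2 lay among the scramble arrays. The Ltbp1 difference was -0.36 ± 0.15 (adjusted p = 0.451). Without that array it was -0.54 and was called (adjusted p = 0.0413), as was Lrrc32 on the higher side (0.54, adjusted p = 0.0488). That fit called 1.91% of all genes on the lower side and 0.528% on the higher side. Mmp14, a membrane protease that can release latent ligand, had a difference of 0.36 ± 0.16 (adjusted p = 0.482). The median of this list was 0.09.

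Of 16 co-receptors and receptor regulators, 0 were called, 0 had an unadjusted p below 0.05 and the median was 0.03. The smallest p belonged to the ubiquitin ligase Nedd4l (-0.24 ± 0.11), the endothelial type I receptor Acvrl1 (0.16 ± 0.10) and the co-receptor Cd109 (0.15 ± 0.12). The SMAD7 partner ligases, chosen after their values were seen, stood at 0.17 ± 0.17 for Smurf1 and 0.09 ± 0.11 for Smurf2. Of 12 other SMADs and nuclear partners, 0 were called and 0 had an unadjusted p below 0.05, with a median of -0.02. Trim33, a ubiquitin ligase of the SMAD pathway, stood at -0.16 ± 0.10, the acetyltransferase gene Ep300 at -0.15 ± 0.11 and the SMAD co-repressor Skil, like Smad7 a feedback inhibitor, at -0.20 ± 0.18. Skil values of 5.71, 6.10 and 6.33 with Htt siRNA overlapped those of 6.50, 6.08 and 6.16 with scramble. Smad4, the shared partner SMAD and also chosen after its value was seen, had 7.25, 7.28 and 7.15 with Htt siRNA, against 7.36, 7.01 and 7.30 with scramble. The 6 genes of the kinase branch that runs beside the SMADs had 0 called and a median of 0.06, with the kinase Map3k7 (TAK1) at -0.15 ± 0.09, its binding partner Tab2 at 0.10 ± 0.12 and the adaptor Shc1 at 0.07 ± 0.09.

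Target genes of the pathway had values on both sides of 0. Of 34 measured, 0 were called, 8 had an unadjusted p below 0.05 on the higher side, against 5.72% of all genes, and 3 on the lower side, against 5.14%. The median difference was 0.05, beside 0.03 for all genes. In 10 of the 34 all knockdown arrays were higher than all scramble arrays, against 10.1% of all genes, and in 2 all were lower, against 5.91%. Acta2, smooth muscle actin, had 11.24, 11.15 and 11.23 with Htt siRNA, against 10.81, 10.77 and 10.78 with scramble (difference 0.42 ± 0.08, adjusted p = 0.204). The actin-binding protein gene Tagln had 6.14, 6.22 and 6.07 with Htt siRNA, against 5.56, 5.76 and 5.27 with scramble (0.61 ± 0.13, adjusted p = 0.264). Col1a1, a fibrillar collagen chain, had 8.10, 7.58 and 8.28 with Htt siRNA, against 6.73, 6.50 and 7.23 with scramble (1.17 ± 0.23, adjusted p = 0.236). For these 3 genes the groups did not overlap. Col1a1 was called without Htt siRNA replicate 2 (1.37, adjusted p = 0.0239), a fit that called 0.528% of all genes on the higher side.

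The other 5 targets with an unadjusted p below 0.05 on the higher side, named after their values were seen, also had groups without overlap. These were the matrix protein periostin (Postn, 1.04 ± 0.28), the collagen chains Col1a2 (0.44 ± 0.11), Col3a1 (0.40 ± 0.12) and Col5a1 (0.40 ± 0.13), and calponin (Cnn1, 0.51 ± 0.14). Chosen after their values were seen, Angptl4, a lipoprotein lipase inhibitor, stood at -0.40 ± 0.10, the metalloproteinase inhibitor Timp1 at -0.41 ± 0.13 and the matrix protein Ltbp2 at -0.48 ± 0.18, and these were the 3 targets with an unadjusted p below 0.05 on the lower side. Several targets on this list are also genes of other cells, so those markers are given beside them. The fibro-adipogenic list had 4 of 6 measured markers with positive differences and a summed linear signal of 137 to 150 with Htt siRNA against 119 to 143 with scramble, with Dpt, Pi16, Lum and Thy1 below the median gene. Most of that sum came from Cd34 (mean log2 6.67 against 6.49), while Pdgfra, a defining marker of these cells, was lower in each knockdown array (-0.26 ± 0.11). The smooth muscle and pericyte list had 5 of 5 positive differences and a summed signal of 121 to 124 against 87.5 to 123, with Rgs5 below the median gene. The endothelial list, all below the median gene, had 5 of 5 positive differences too, and 58.2% of all genes had a positive difference. In each of these lists 0 markers were called, against 0.0% of all genes. Their part in the target values was not tested.

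**Figure D5:**
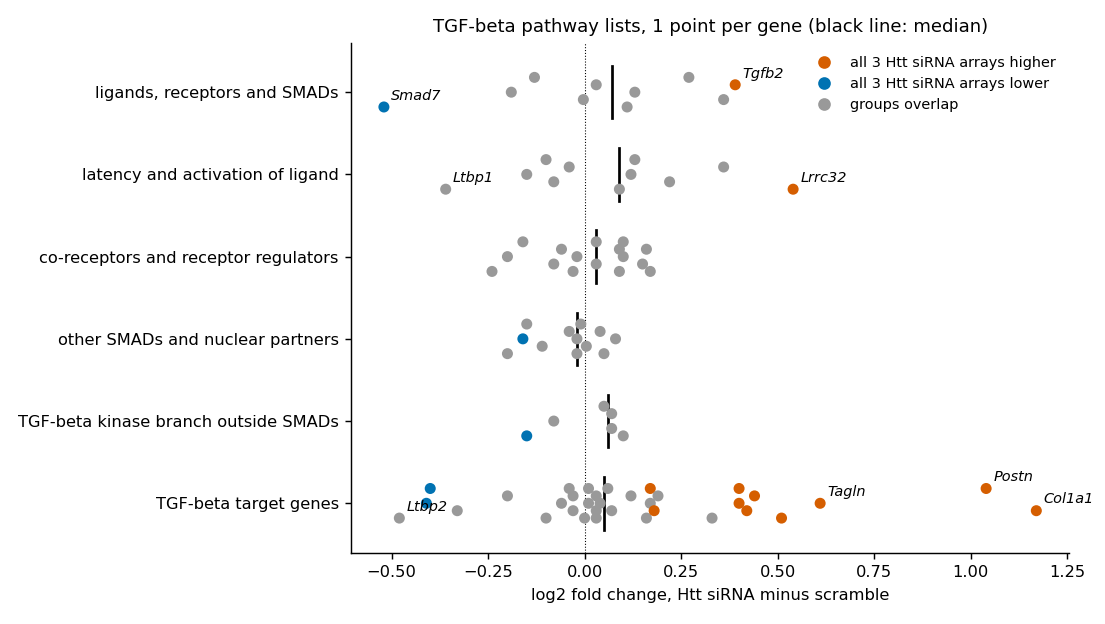
Log2 fold change, Htt siRNA minus scramble, of the 10 TGF-beta ligands, receptors and SMADs and of 5 further pathway lists, 1 point per gene, with the median of each list as a black line. Orange and blue mark genes whose groups do not overlap; list medians lie between -0.02 and 0.09, with Smad7 at -0.52, Lrrc32 at 0.54 and Col1a1 at 1.17 among the outermost points.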

How the data were processed

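The authors deposited log2 expression values for 41345 probe sets on 6 Affymetrix arrays, made with RMA and the affy package per the submitters' processing notes, which give no versions. Quantile normalization gives arrays a common distribution, so a global change in RNA per cell is not visible. Array medians were 2.59 to 2.67. The table has no detection calls, and array number limits precision. Genes were named from the platform annotation, with 23521 probe sets of 1 symbol, 1814 of several and 16010 unlisted, and 23328 matched RefSeq (GRCm38.p6) by Entrez identifier. The brightest probe set stood for each of 22180 genes.

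Groups came from sample titles. Differences were fitted with limma 3.58.1 (lmFit and eBayes, R 4.3.3, group as the only term, two-sided, Benjamini-Hochberg over all genes, threshold 0.05). The fit was checked on simulated data with independent noise between arrays and changes larger than any difference of the members. That check cannot show how well changes of the members' size are found. Members, pathway lists, markers and the naming rule (all members, Htt, the 3 smallest p per list, and the 5 profiles nearest to each of the 2 members with the smallest p) were chosen with earlier results of these data known. Fbn1 was not analysed here. Alternatives changed probe set choice, filter, features tested, centring, normalization, variance model, weights, replicate block, a stress covariate and single arrays. Plots used Python 3.11.15 and matplotlib 3.10.9.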

Additional observations from a re-analysis of the deposited data

How the results depend on the processing

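All of Tgfb1, Tgfb2, Tgfb3, Tgfbr1, Tgfbr2, Tgfbr3, Smad6 and Smad7 kept their sign under every alternative run, though the filter on dim genes removed Smad6. Smad2, at -0.0034 as reported, was 0.04 after repeated quantile normalization and between -0.05 and 0.03 when single arrays were left out, and Smad3 was between -0.06 and 0.14 when single arrays were left out. When single arrays were left out, Skil lay between -0.34 and -0.03, Trim33 between -0.21 and -0.06 and Mmp14 between 0.23 and 0.54. The median of the 10 genes ranged from 0.02 to 0.13. The members called numbered 0 to 1 and the latency and activation genes called 0 to 2 when single arrays were left out. Target genes called numbered 2 with the replicate block, Col1a1 among them (adjusted p = 0.0171), and 0 to 1 without single arrays. The count over all genes, 0 as reported, was 3 above the median mean, 1 of 41345 with all probe sets tested (0 of those that stand for genes), 3 with centred arrays, 3 after repeated quantile normalization, 4 with trend and robust, 1 with array weights, 83 with the stress covariate and 0 to 540 without single arrays, with 540 without Htt siRNA replicate 2 and 1 without scramble siRNA replicate 1. The cause of these shifts was not tested. Same-numbered arrays paired only in part: deviations from group means correlated at 0.35, 0.36 and 0.006 for replicates 1, 2 and 3. For Htt siRNA replicates 1 and 2 the same-numbered scramble array was the best match. Htt siRNA replicate 3 correlated best with scramble replicate 1 (0.22). The labels do not state whether arrays were paired, and these values do not settle it. The replicate block moved the count over all genes to 98 and called none of the 10 members, with Smad7 at an adjusted p of 0.0723. Without detection calls, differences of dim genes such as Smad6 and Lrrc32 have no measured floor.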
